A study of Mus musculus with 8 samples.

Results

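Accessible chromatin was described here at Gramd1b and 7 other genes that move, export or sense cholesterol: Gramd1a, Gramd1c, Abca1, Abcg1, Srebf1, Srebf2 and Nr1h3. The members were every region of the count table that overlapped, or lay within 20 kb of, the GRCm38 span of one of these genes. This gave 90 of the 59906 regions in the table, and all 90 passed the filter on low counts. Gramd1b was chosen because 1 of its regions was lower in OPA1KO libraries in the comparison of the genotypes, so the values of that region, and of the other Gramd1b regions in the same comparison, are given as a description without a test. The other 7 genes were chosen by function, with earlier results of these data known.

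The assay was ATAC-seq, in which a transposase cuts and tags open DNA in nuclei, so that read counts over a region measure how accessible it is. The cells were sorted splenic cDC1, a class of dendritic cell in the mouse that is best known for presenting captured antigen to CD8 T cells. There were 4 OPA1KO libraries, from mice that carried CD11c-Cre and a floxed OPA1 allele, and 4 WT libraries. OPA1 is the GTPase that fuses inner mitochondrial membranes and shapes cristae. The CD11c promoter is active across dendritic cells and in some macrophages, so deletion need not be limited to cDC1. The labels give no ages, do not say whether WT mice carried Cre and do not tie libraries to animals, and p-values therefore measure only the spread between these 8 libraries.

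Levels are TMM-scaled CPM, the counts of a library brought to a common depth. Means carry the SD over the 4 libraries of a genotype. Every log2 fold change is OPA1KO minus WT and carries its standard error from the edgeR model. Total counts in regions were 4660826 to 7590578 per library and the median count was 42. At an edgeR adjusted p under 0.05, 9 of the 59247 tested regions were called lower (0.0152%) and 3 higher (0.00506%). Leaving out WT replicate 2 raised the lower calls to 54 and the higher calls to 14, and leaving out OPA1KO replicate 1 or 3 or WT replicate 3 or 4 left 0 lower calls. The 1 region inside Opa1, at its start, had 39.2 ± 3.73 CPM in OPA1KO libraries and 42.1 ± 3.85 CPM in WT libraries, but the floxed exons were not located here, so it does not check the deletion. Of 15 cDC1 markers, 11 had a region at the gene start, with a median of 36.8 CPM, and Xcr1, Clec9a, Itgae and Zbtb46 had 4, 9, 10 and 14 regions within 20 kb of their spans. Of 20 macrophage and monocyte markers, 17 had a start region, with a median of 8.15 CPM. Their summed level was 226.0 to 246.3 CPM in OPA1KO libraries and 234.0 to 279.7 CPM in WT libraries. Cd68 made up a large part of this sum, with 95.3 ± 12.5 CPM in OPA1KO libraries and 95.3 ± 11.4 CPM in WT libraries. The sum therefore says little about the weaker markers, and the median log2 fold change of the 17 start regions was -0.23. Start regions were also present at 4 of 7 B cell markers, 1 of 7 T cell markers (Cd4) and 1 of 5 NK cell markers (Eomes), and since Xcr1 and Clec9a had none, a missing start region does not show that a cell type was absent. In pooled cells, fewer cells with an open region and less opening per cell cannot be told apart.

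Cells keep free cholesterol within narrow limits. Gramd1b encodes Aster-B, a protein anchored in the endoplasmic reticulum that takes cholesterol from the plasma membrane at contact sites. Gramd1a and Gramd1c encode its relatives Aster-A and Aster-C. Abca1 exports cholesterol to lipid-poor apolipoprotein A-I, and Abcg1 exports it to high-density lipoprotein. Srebf2 encodes SREBP2, the main activator of sterol synthesis and uptake genes when sterols are low, and Srebf1 encodes SREBP1, which mainly drives fatty acid synthesis. Nr1h3 encodes LXRα, a receptor for oxysterols that pairs with RXR and turns on Abca1, Abcg1 and Srebf1 when sterols are high.

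The promoters of Abca1, Srebf1 and Srebf2 are shown because each holds a known sterol control element and lies wholly inside a region of the table. The sequences are the 250 bases before an annotated start, from RefSeq on GRCm38.p6, written 5′ to 3′ along the gene. They span chr4:53159896-53160145 on the minus strand for Abca1, chr11:60210472-60210721 on the minus strand for Srebf1, and chr15:82147019-82147268 on the plus strand for Srebf2. Capitals mark the matches described after them.
Abca1 promoter: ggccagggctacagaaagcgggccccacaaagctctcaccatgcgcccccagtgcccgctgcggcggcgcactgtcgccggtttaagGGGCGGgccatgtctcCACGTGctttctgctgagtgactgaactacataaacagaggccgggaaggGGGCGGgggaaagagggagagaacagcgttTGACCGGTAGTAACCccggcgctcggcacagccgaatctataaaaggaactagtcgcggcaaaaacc
Srebf1 promoter: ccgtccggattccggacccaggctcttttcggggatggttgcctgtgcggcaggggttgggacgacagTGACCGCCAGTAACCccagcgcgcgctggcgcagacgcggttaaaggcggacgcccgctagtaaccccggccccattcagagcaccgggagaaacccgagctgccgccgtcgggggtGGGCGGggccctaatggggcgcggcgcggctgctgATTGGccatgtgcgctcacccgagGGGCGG
Srebf2 promoter: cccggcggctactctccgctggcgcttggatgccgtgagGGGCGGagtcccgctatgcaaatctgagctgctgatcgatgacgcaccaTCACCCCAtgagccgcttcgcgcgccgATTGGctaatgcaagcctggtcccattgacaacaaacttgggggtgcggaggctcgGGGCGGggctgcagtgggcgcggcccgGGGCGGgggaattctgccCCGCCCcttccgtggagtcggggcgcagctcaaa

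The motifs were searched on both strands, and their letters were chosen from known elements after these sequences had been read. No match overlapped another. The direct repeat bound by LXR and RXR, searched as GGTTA and GGTCA with any 5 bases between them, lay 67 to 53 bases before the Abca1 start as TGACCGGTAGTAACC and 182 to 168 bases before the Srebf1 start as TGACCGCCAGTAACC. Of 32851 promoters of this length, 15 (0.0457%) held this repeat. Abca1 also held an E-box, CACGTG, at 147 to 142 bases before its start, which 6.02% of promoters held. Srebf2 held the sterol regulatory element core TCACNCCA, through which SREBPs act, as TCACCCCA at 162 to 155 bases before its start, and 3.67% of promoters held it. Abca1 and Srebf1 each held 2 GC boxes (GGGCGG, in 32.7% of promoters) and Srebf2 held 4. Srebf1 and Srebf2 each held 1 CCAAT box (CCAAT, in 33.8%). A match describes the letters and not the binding of a factor.

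Gramd1b spans chr9:40293233-40533614, 240.4 kb, and had the most regions of the 8 genes, with 22, of which 21 lay inside the gene model. No region lay within 1 kb of either end of the model. The nearest were 5.53 kb inside the low end and 3585 bp beyond the high end, so the regions described here lie away from the annotated ends. The lower region, chr9:40321128-40321838, is 710 bp wide, the widest of the 22 but 1, and lies 27.9 kb from the low end. Whether it is exonic or intronic was not analysed here.

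The lower Gramd1b region had 19.8, 17.9, 16.2 and 14.6 CPM in OPA1KO replicates 1 to 4, against 28.4, 25.7, 37.3 and 29.4 CPM in WT replicates 1 to 4. All 4 OPA1KO libraries lay below all 4 WT libraries, as they did at 2.11% of all tested regions, with counts of 89 to 187 behind the values. The means were 17.1 ± 2.23 CPM in OPA1KO libraries and 30.2 ± 5.0 CPM in WT libraries, a log2 fold change of -0.81 ± 0.15. Its edgeR adjusted p of 0.0419 was the value that chose the gene. Among the 22 Gramd1b regions its level ranked 4 in OPA1KO libraries and 1 in WT libraries, and its log2 fold change was the lowest. That rank became 2 without OPA1KO replicate 2, OPA1KO replicate 4 or WT replicate 1, and 3 without WT replicate 2. The adjusted p passed 0.05 when any single library other than WT replicate 2 was left out, reaching 0.47 without WT replicate 3, where the log2 fold change was -0.69. It was 0.00363 without WT replicate 2. None of the start regions of cell type markers was called by edgeR in either direction. In OPA1KO libraries 12 of the 17 macrophage and monocyte start regions were lower (median log2 fold change -0.23), beside 60.9% of all start regions (median -0.03). All 6 start regions of cDC2 markers were lower (113.3 to 132.2 CPM summed in OPA1KO libraries and 131.4 to 146.0 CPM in WT libraries), and 3 of 3 of red cell markers were higher (65.4 to 73.1 CPM in OPA1KO libraries and 59.4 to 61.0 CPM in WT libraries). The medians were 0.02 for plasmacytoid dendritic cell, -0.04 for B cell and -0.09 for neutrophil markers. The macrophage genes Cd163, Ccr2 and Marco had no start region. The part of these cells in the Gramd1b values was not tested.

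**Figure D1:**
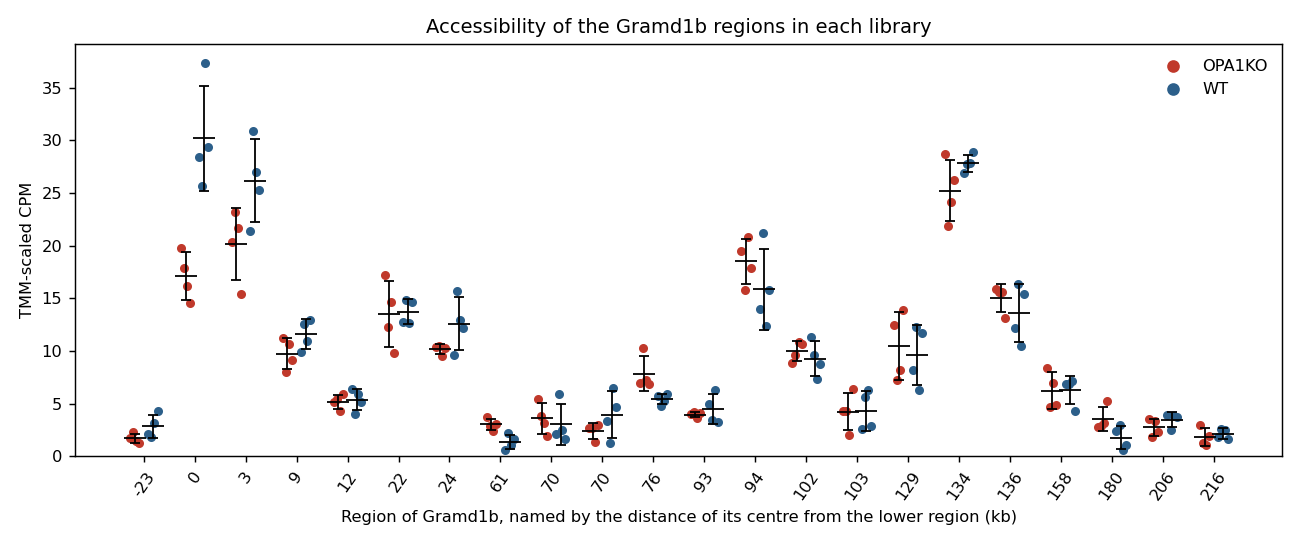
CPM (vertical axis) of the 22 Gramd1b regions in each library, ordered along chromosome 9 and named by the distance in kb of their centres from the lower region, which stands at 0. Points are libraries (OPA1KO red and left, WT blue and right), and bars are mean ± SD with n = 4. The groups are apart at 0, where OPA1KO libraries sit between 14.6 and 19.8 CPM and WT libraries between 25.7 and 37.3 CPM, and overlap at most other regions.

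The 2 regions beside the lower region were also lower on average in OPA1KO libraries, with overlapping groups. On the side of the high end, chr9:40324186-40324703, with its centre 2.96 kb away, had 20.3, 23.2, 21.7 and 15.4 CPM in OPA1KO libraries, against 21.4, 30.9, 27.0 and 25.3 CPM in WT libraries. Its log2 fold change was -0.37 ± 0.16, and OPA1KO replicates 2 and 3 lay above WT replicate 1. On the other side, chr9:40298765-40298956 was weakly open, with 1.71, 2.36, 1.47 and 1.31 CPM in OPA1KO libraries and 2.13, 1.87, 3.16 and 4.3 CPM in WT libraries (-0.73 ± 0.41). This side rests on counts of 8 to 24 per library.

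The sign of the difference varied along the gene. The lower region belongs to a cluster of 7 regions at the low end of the model, followed by 36.6 kb without a region. The 6 others of this cluster all had log2 fold changes below 0, between -0.73 and -0.02, and summed to 60.6 ± 6.01 CPM in OPA1KO libraries and 72.3 ± 7.44 CPM in WT libraries, with overlapping groups. Beyond the gap, 9 of 15 regions were higher and 6 lower in OPA1KO libraries, and their sum was 118.8 ± 9.27 CPM in OPA1KO libraries and 112.6 ± 8.8 CPM in WT libraries. The division at the gap was made after the values were seen and was not tested. In all, 13 of the 22 regions were lower in OPA1KO libraries, 59.1%, against 50.7% of all tested regions. Without the lower region, which chose the gene by being lower, the share was 12 of 21, 57.1%.

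The groups overlapped at the most open regions in the middle of the gene. The widest, chr9:40455169-40456182, had 28.7, 21.9, 24.1 and 26.2 CPM in OPA1KO libraries and 26.9, 27.7, 27.8 and 28.9 CPM in WT libraries. OPA1KO replicate 1 was near the highest WT value and replicate 2 the lowest of all, and the log2 fold change was -0.14 ± 0.13. The region chr9:40415090-40415466 had 19.5, 15.8, 20.8 and 17.9 CPM in OPA1KO libraries and 14.0, 21.2, 12.4 and 15.8 CPM in WT libraries, with a log2 fold change of 0.22 ± 0.17. WT replicate 2 was its highest library, so the groups overlapped.

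At 2 weaker Gramd1b regions the groups were apart the other way, as they were at 1.84% of all tested regions. The region chr9:40382136-40382336 had 3.7, 2.9, 2.41 and 3.12 CPM in OPA1KO libraries and 0.608, 2.18, 1.05 and 1.61 CPM in WT libraries (1.13 ± 0.43). The region chr9:40396982-40397461 had 6.97, 10.3, 7.24 and 6.89 CPM in OPA1KO libraries and 5.78, 4.83, 5.27 and 5.92 CPM in WT libraries (0.52 ± 0.24). Both lie beyond the gap, 60.8 and 75.7 kb from the lower region. The counts behind the first were 4 to 26 per library.

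**Figure D2:**
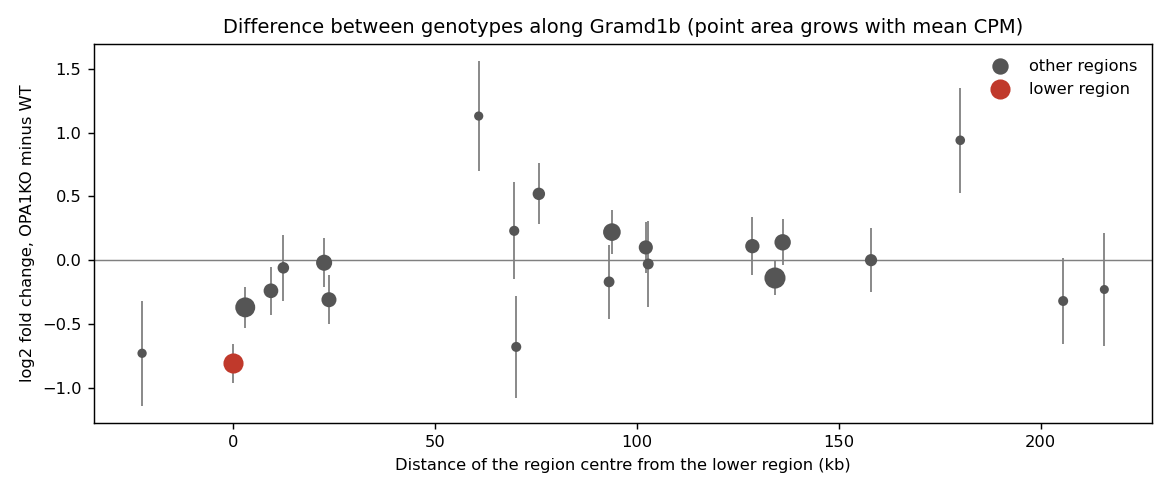
Log2 fold change (vertical axis, OPA1KO minus WT, bars ± SE) of each Gramd1b region against the distance in kb of its centre from the lower region, with point area growing with mean CPM. The lower region (red) is at -0.81, the 6 others on the left all lie below 0, and the 15 beyond the gap lie on both sides of 0.

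Summed over its 22 regions, Gramd1b had 216.1, 188.9, 192.7 and 188.2 CPM in OPA1KO libraries and 197.6, 231.1, 216.6 and 215.2 CPM in WT libraries. OPA1KO replicate 1 lay within the WT range. The means were 196.5 ± 13.2 CPM in OPA1KO libraries and 215.1 ± 13.7 CPM in WT libraries, a log2 ratio of -0.13. The lower region held 8.72% of the sum in OPA1KO libraries and 14.0% in WT libraries. Without it the sums were 179.3 ± 11.5 CPM in OPA1KO libraries and 184.9 ± 15.2 CPM in WT libraries, a log2 ratio of -0.04, smaller than the spread between libraries.

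No other member region passed the test. Among the 90 regions 1 was called lower, the Gramd1b region (against 0.0152% of all tested regions), and 0 were called higher (against 0.00506%, or 0.0203% in either direction). Outside Gramd1b the smallest edgeR adjusted p of the 68 regions was 0.624. At an unadjusted p under 0.05 there were 6 of the 68 (8.82%), against 6.38% of all tested regions. OPA1KO libraries lay wholly below WT libraries at 3 of the 68 (4.41%, against 2.11% of all tested regions) and wholly above at 2 (2.94%, against 1.84%). Of the 68 regions, 39 were lower and 29 higher, with a median log2 fold change of -0.07, beside 0.00 over all tested regions and -0.03 over all regions at gene starts.

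**Figure D3:**
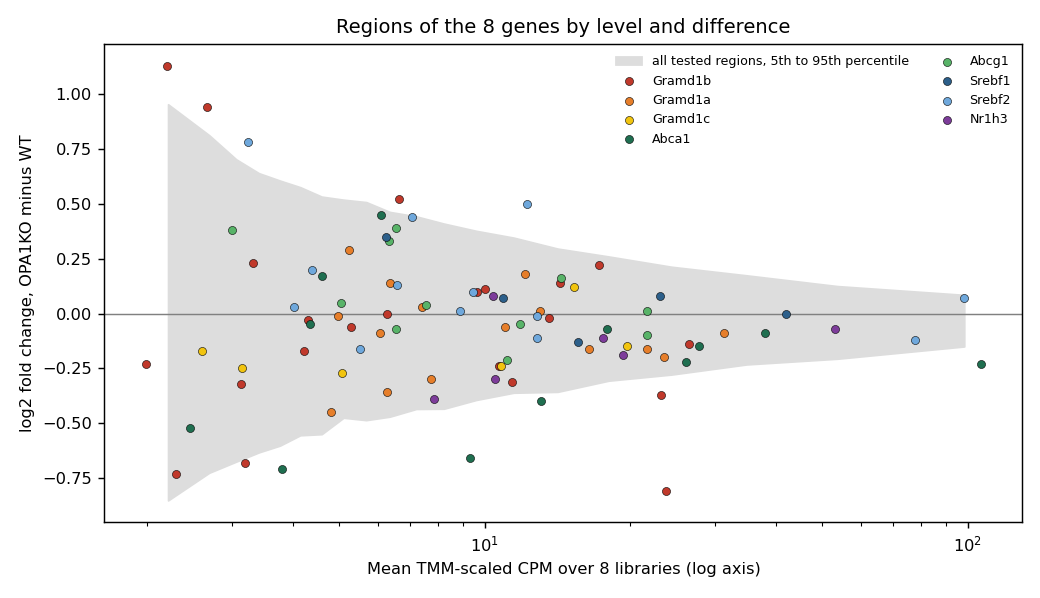
Log2 fold change (vertical axis, OPA1KO minus WT) against mean CPM over 8 libraries (log axis) for the 90 regions, coloured by gene, with the range from the 5th to the 95th percentile of all tested regions at each level in grey. The lower Gramd1b region, at 23.7 CPM and -0.81, lies outside the grey band, as do several others, such as the Srebf2 region at 12.2 CPM and 0.50 and the Abca1 region at 9.32 CPM and -0.66.

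Gramd1a, which encodes Aster-A, spans chr7:31130127-31155935 and had 15 regions, 6 of them inside the model. Its start region, chr7:31151412-31151836, had 24.5, 22.1, 19.0 and 22.0 CPM in OPA1KO libraries and 25.4, 22.0, 27.4 and 25.8 CPM in WT libraries. OPA1KO replicates 1 and 2 reached the WT range, and the log2 fold change was -0.20 ± 0.14 (edgeR adjusted p = 0.873). The most open Gramd1a region, chr7:31148754-31149119 inside the gene, had 30.3 ± 3.72 CPM in OPA1KO libraries and 32.3 ± 5.55 CPM in WT libraries. All 6 regions inside the gene, 2 of them at its start, had log2 fold changes below 0, between -0.20 and -0.01. Values below 0 were found at 50.7% of all tested regions, with 60.9% at gene starts and 47.8% inside genes away from starts. The 6 regions summed to 99.0 ± 6.82 CPM in OPA1KO libraries and 108.9 ± 7.95 CPM in WT libraries, with overlapping groups.

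Gramd1c spans chr16:43980350-44065380 and was the least open of the 3 Aster genes, with 4 regions inside its model. Its start region, chr16:44016223-44016572, had 8.68, 9.06, 9.65 and 12.1 CPM in OPA1KO libraries and 12.2, 10.1, 12.2 and 12.2 CPM in WT libraries. WT replicates 1, 3 and 4 were nearly equal, OPA1KO replicate 4 reached just below them, and the groups overlapped (-0.24 ± 0.19, edgeR adjusted p = 0.886). The 4 regions inside the gene summed to 19.7 ± 2.8 CPM in OPA1KO libraries and 23.4 ± 2.6 CPM in WT libraries.

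Abca1 had the largest difference in level summed over the 20 kb window of the 7 genes other than Gramd1b. It spans chr4:53030789-53159988, and its 12 regions summed to 229.2, 232.0, 259.0 and 247.6 CPM in OPA1KO libraries and 276.2, 266.3, 289.0 and 277.9 CPM in WT libraries. All OPA1KO libraries lay below all WT libraries, with means of 242.0 ± 14.0 CPM in OPA1KO libraries and 277.4 ± 9.3 CPM in WT libraries, a log2 ratio of -0.20. Much of this sum was not from Abca1 itself. The region chr4:53011693-53012516, 18273 bp outside the model at the start of Nipsnap3b, had 98.0 ± 5.3 CPM in OPA1KO libraries and 114.6 ± 8.65 CPM in WT libraries (-0.23 ± 0.08, edgeR adjusted p = 0.624). Without it, the 11 regions inside Abca1 summed to 137.4, 136.0, 154.8 and 147.7 CPM in OPA1KO libraries and 151.9, 163.0, 173.0 and 163.4 CPM in WT libraries. OPA1KO replicate 3 then lay above WT replicate 1, and the log2 ratio was -0.18.

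Of the 11 regions inside Abca1, 9 were lower and 2 higher in OPA1KO libraries. Over all tested regions 50.7% were lower, with 60.9% at gene starts and 47.8% inside genes away from starts. The start region, chr4:53159750-53160235, which holds the promoter with the LXR-type repeat, had 21.6, 23.4, 29.1 and 31.0 CPM in OPA1KO libraries and 30.6, 30.7, 29.1 and 26.0 CPM in WT libraries. OPA1KO replicates 1 and 2 were low and replicate 4 was the highest library of all, so the groups overlapped (-0.15 ± 0.14, edgeR adjusted p = 0.911). A region just inside the start, chr4:53155448-53155783, had 5.69, 7.25, 4.56 and 11.3 CPM in OPA1KO libraries and 10.2, 6.08, 17.1 and 12.4 CPM in WT libraries (-0.66 ± 0.29, edgeR adjusted p = 0.743). OPA1KO replicate 4 lay above WT replicates 1 and 2 there, so the groups overlapped. The groups were apart at 3 regions deeper in the gene, named after their values were seen, and none was called. Over all tested regions, groups were apart with OPA1KO libraries below at 2.11% and above at 1.84%. OPA1KO libraries were below WT libraries at chr4:53115910-53116206 (11.4 ± 1.99 against 14.9 ± 1.5 CPM, edgeR adjusted p = 0.755) and at chr4:53126834-53127044 (2.89 ± 0.608 against 4.74 ± 0.979 CPM, edgeR adjusted p = 0.718). They were above at chr4:53149701-53150011 (7.05 ± 0.637 against 5.16 ± 0.996 CPM, edgeR adjusted p = 0.81). The part of macrophages and monocytes, whose marker values stand beside the Gramd1b region, in the Abca1 values was not tested.

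The groups overlapped at Abcg1, the other efflux transporter gene. It spans chr17:31057694-31117984, and its 11 regions summed to 116.6 ± 11.8 CPM in OPA1KO libraries and 114.6 ± 7.63 CPM in WT libraries (log2 ratio 0.03). The start region, chr17:31057518-31058324, had 22.5, 18.5, 22.7 and 20.2 CPM in OPA1KO libraries and 24.2, 26.0, 18.6 and 20.8 CPM in WT libraries. Its groups were interleaved (-0.10 ± 0.15, edgeR adjusted p = 0.951). Whether Abca1 and Abcg1 differed from each other in their response was not tested.

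At the start region with the highest mean CPM of each gene, Srebf2 and Srebf1 were the most open of the 7 genes per kb and had the smallest log2 fold changes. The Srebf2 start region, chr15:82146777-82147417, had 103.3, 97.9, 106.7 and 94.3 CPM in OPA1KO libraries and 88.5, 117.8, 78.7 and 97.7 CPM in WT libraries. The WT libraries spread on both sides of the OPA1KO libraries (0.07 ± 0.10, edgeR adjusted p = 0.946). This region holds the promoter with the sterol regulatory element. The Srebf1 region with the LXR-type repeat, chr11:60210279-60210742, had 41.0, 39.3, 43.7 and 44.4 CPM in OPA1KO libraries and 46.4, 37.1, 44.5 and 40.3 CPM in WT libraries. Both means were 42.1 CPM, with an SD of 2.38 in OPA1KO libraries and 4.17 in WT libraries, and the standard error of the log2 fold change of 0.00 was 0.11.

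Srebf1 spans chr11:60199084-60224186 and had 3 regions at annotated starts, the most of the 6 genes with annotated starts. The other 2, at 60220242 and 60222754 on the same chromosome, had 23.6 ± 2.17 and 14.9 ± 1.95 CPM in OPA1KO libraries, against 22.3 ± 3.57 and 16.3 ± 1.01 CPM in WT libraries. The sum over all 5 Srebf1 regions was 98.8 ± 2.85 CPM in OPA1KO libraries and 96.9 ± 2.61 CPM in WT libraries.

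Srebf2 spans chr15:82147269-82205379, and its intron is known to host the microRNA miR-33, which represses Abca1 in mouse cells. The 5′ arm of that microRNA, at chr15:82198127-82198147 on the plus strand in the RefSeq table, is shown with its seed, bases 2 to 8, in capitals.
mmu-miR-33-5p: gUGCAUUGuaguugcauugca
The nearest region, chr15:82196390-82196810, is 1.32 kb away and had the largest change of the Srebf2 regions under the naming rule. It had 13.8, 11.6, 13.4 and 18.5 CPM in OPA1KO libraries and 12.3, 9.66, 9.7 and 8.79 CPM in WT libraries. WT replicate 1 lay above OPA1KO replicate 2, and the log2 fold change was 0.50 ± 0.19 (edgeR adjusted p = 0.652). Any link of this region to miR-33 or to Abca1 was not tested. The weak region chr15:82187060-82187360 had separate groups, 4.1 ± 0.727 CPM in OPA1KO libraries and 2.35 ± 0.817 CPM in WT libraries (edgeR adjusted p = 0.718). Groups were apart in this direction at 1.84% of all tested regions. Over the 9 regions inside Srebf2, the sum was 172.9 ± 9.55 CPM in OPA1KO libraries and 159.6 ± 22.8 CPM in WT libraries, a difference smaller than the spread of the WT libraries.

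Nr1h3 spans chr2:91184061-91202829. Its start region, chr2:91194608-91195310, had 8.68, 12.1, 8.71 and 8.36 CPM in OPA1KO libraries and 13.2, 12, 11.2 and 10.0 CPM in WT libraries. OPA1KO replicate 2 lay within the WT range while its other libraries lay below it (-0.30 ± 0.20, edgeR adjusted p = 0.85). The region outside the gene with the largest change, chr2:91206280-91206600, had 6.73 ± 1.98 CPM in OPA1KO libraries and 8.99 ± 1.83 CPM in WT libraries (-0.39 ± 0.24, edgeR adjusted p = 0.837). The 6 Nr1h3 regions, 3 of which lie at the starts of its neighbours Madd and Acp2, summed to 113.4 ± 7.95 CPM in OPA1KO libraries and 123.9 ± 6.04 CPM in WT libraries.

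**Figure D4:**
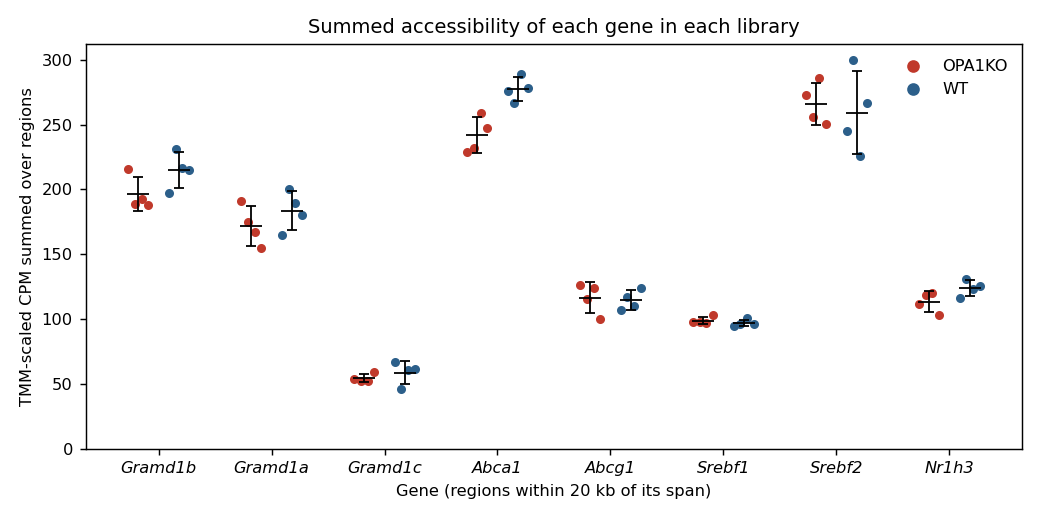
CPM summed over all regions within 20 kb of each gene (vertical axis) in each library, with OPA1KO red and left, WT blue and right, and bars for mean ± SD (n = 4). The groups overlap for every gene except Abca1, where OPA1KO libraries reach 259.0 CPM and WT libraries begin at 266.3 CPM.

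For each gene, the start region with the highest mean CPM was compared per kb of region, and the order was the same in both genotypes: Srebf2, Srebf1, Abca1, Gramd1a, Gramd1c, Abcg1 and Nr1h3. Srebf2 led with 157.1 CPM per kb in OPA1KO libraries and 149.5 CPM per kb in WT libraries, and Srebf1 followed with 91.0 CPM per kb in OPA1KO libraries and 90.9 CPM per kb in WT libraries. Abca1 had 54.2 CPM per kb in OPA1KO libraries and 60.0 CPM per kb in WT libraries. Gramd1a was close to it, at 51.6 CPM per kb in OPA1KO libraries and 59.3 CPM per kb in WT libraries. The WT libraries of these neighbours overlapped, as did those of Gramd1c (28.3 CPM per kb in OPA1KO libraries and 33.5 in WT libraries) and Abcg1 (26.0 in OPA1KO libraries and 27.8 in WT libraries). Nr1h3 was last, at 13.5 CPM per kb in OPA1KO libraries and 16.5 CPM per kb in WT libraries. Among all start regions of the table, Srebf2 stood at percentile 90.1 and Nr1h3 at percentile 12.6 in WT libraries. The order holds for these regions alone. The other start region of Abca1, at 53158635, had 65.3 CPM per kb in OPA1KO libraries and 76.3 CPM per kb in WT libraries, and that of Gramd1a, at 31150903, had 61.8 CPM per kb in OPA1KO libraries and 68.9 CPM per kb in WT libraries, both denser than the regions compared. The other start regions of Srebf1, at 60220242 and 60222754, were less dense, with 43.2 and 31.3 CPM per kb in OPA1KO libraries and 40.7 and 34.2 CPM per kb in WT libraries. Gramd1b is left out because it had no region within 1 kb of either end of its model. It had no annotated start in the promoter table, so whether any of its inner regions lies at a start was not checked. Its lower region had 24.1 CPM per kb in OPA1KO libraries and 42.6 CPM per kb in WT libraries.

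**Figure D5:**
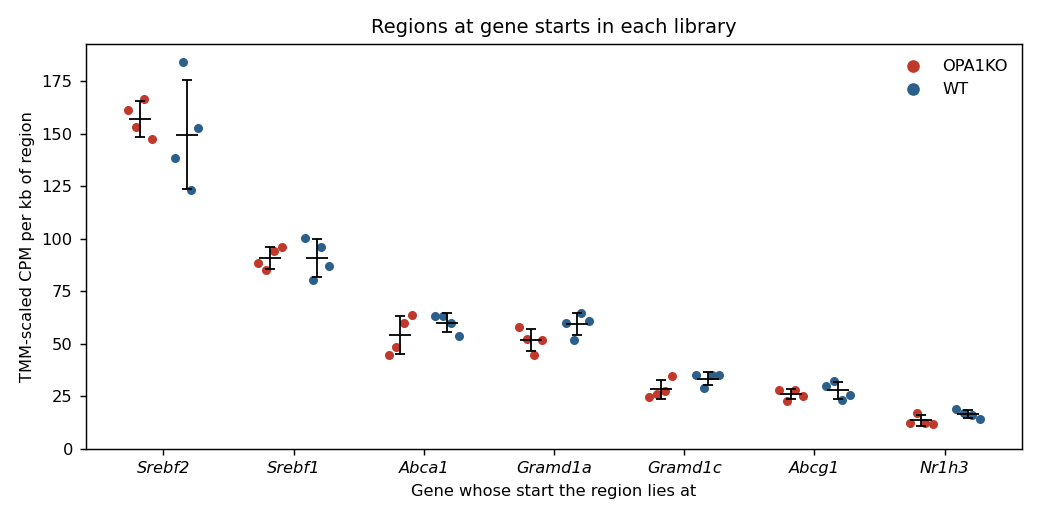
CPM per kb of region (vertical axis) at the start region with the highest mean CPM of 7 genes in each library, with OPA1KO red and left, WT blue and right, and bars for mean ± SD (n = 4). Srebf2 is the highest and Nr1h3 the lowest in both genotypes, and the groups overlap at every gene.

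The wider cholesterol pathway was read at gene starts in 6 lists with 82 genes, of which 74 had a tested start region. None of the 74 was called, the smallest edgeR adjusted p being 0.673, and 3 had an unadjusted p under 0.05 (4.05%, against 4.23% of all start regions). In OPA1KO libraries 46 of the 74 (62.2%) were lower, against 60.9% of all start regions. Sterol synthesis genes, the classic SREBP2 targets, had 14 of 20 regions lower and 6 higher with a median log2 fold change of -0.02. Their smallest p-values belonged to the thiolase gene Acat2 (63.0 ± 2.91 CPM in OPA1KO libraries and 70.3 ± 5.58 CPM in WT libraries, edgeR adjusted p = 0.837) and to Ggps1 (202.4 ± 7.98 CPM in OPA1KO libraries and 219.1 ± 13.6 CPM in WT libraries, edgeR adjusted p = 0.847), which makes geranylgeranyl diphosphate.

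Among genes of SREBP processing, 5 of 8 start regions were lower. Insig2, which holds the SREBP escort protein SCAP in the endoplasmic reticulum, had 60.1 ± 6.54 CPM in OPA1KO libraries and 70.6 ± 5.82 CPM in WT libraries (-0.24 ± 0.10, edgeR adjusted p = 0.718). The protease gene Mbtps2, which cuts SREBPs within the membrane, followed by p, at -0.20 ± 0.16. Of 5 uptake genes with a start region 3 were lower, led by the scavenger receptor gene Cd36 (10.4 ± 3.62 CPM in OPA1KO libraries and 14.4 ± 5.07 CPM in WT libraries, edgeR adjusted p = 0.825).

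Of 11 start regions of LXR partners and targets 6 were lower. Rxra, the partner of LXRα, had a log2 fold change of -0.38 ± 0.21 (edgeR adjusted p = 0.821), and Nr1h2, which encodes LXRβ, had -0.16 ± 0.12. Of 19 sterol transport genes 11 were lower. Gramd3, a gene of the wider GRAM domain family, had 8.46 ± 2.88 CPM in OPA1KO libraries and 5.35 ± 1.45 CPM in WT libraries (0.66 ± 0.26, edgeR adjusted p = 0.673), and Stard5, a sterol-binding START protein gene, had -0.24 ± 0.11. Of 11 genes of esterification, storage and oxysterols 7 were lower, with the oxysterol hydroxylase gene Cyp7b1 at 0.29 ± 0.25 and the lipid droplet gene Plin2 at -0.17 ± 0.16. A p that misses the threshold does not show that these regions were equal.

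The regions outside the 8 genes whose pattern over the 8 libraries was most like that of the lower Gramd1b region lay near Dgkb, Lpar1, Rad51b, Ctnnd2 and Aopep. The measure was the mean absolute difference of log2 CPM after each region was centred on its own mean, and the values were 0.0988, 0.107, 0.119, 0.12 and 0.121, against a median of 0.422 over the 29571 regions compared. The first lay 11 kb from Dgkb and the next 32.0 kb from Lpar1, and the other 3 lay inside their genes. The Ctnnd2 region was the most open of them, at 13.0 ± 1.25 CPM in OPA1KO libraries and 19.6 ± 2.66 CPM in WT libraries. None of the 5 was called. The ranking uses the same libraries as the choice of the Gramd1b region, so the size of these differences is a description.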

How the data were processed

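ATAC-seq counts over a common region set were used from 4 OPA1KO and 4 WT libraries of splenic cDC1. The deposited values are counts, whole numbers per region and library without normalization. The submitters' processing notes name builds mm10 and GRCm38 and the tools MACS2 2.1.0.20150603, bedtools, SAMtools, Picard 1.65 and cutadapt 1.9. Their order and settings, the shift of read ends, the rule behind the region set and the base from which starts count are not given in the sources used here. Between 54.1% and 59.9% of a library's counts were even, and whether both ends of a pair were counted was not tested. No 2 libraries were duplicates.

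Regions were filtered with filterByExpr (59247 kept, 659 removed), scaled with TMM (factors 0.947 to 1.03) and tested over all 8 libraries with edgeR 4.0.16 in R 4.3.3 (glmQLFit, robust, and glmQLFTest, no covariates), with Benjamini-Hochberg adjustment over all tested regions and calls at 0.05. The biological coefficient of variation was 0.164. The procedure was also run on simulated counts with known changes and this same variation at every region. That run does not bear on how the calls depend on single libraries. Libraries with the same number did not vary together: the correlations of their deviations from the group means were -0.127, -0.0115, -0.075 and -0.0696. Alternatives were DESeq2 1.42.0, limma 3.58.1 with voom, other size factors and filters, a replicate block, windows of 0 or 50 kb and each library left out.

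Gene spans, starts and promoters came from RefSeq tables on GRCm38.p6, and a start region lies within 1 kb of an annotated start. Annotated starts were found for 6 of the 8 genes in the promoter table. For Gramd1b and Abcg1 either end of the model stood for the start. The members and lists were chosen with earlier results of these data known. Named regions were, for Gramd1b, the lower region, its neighbours and the 3 most open others; for each other gene, its most open start region and the largest change among regions at or above the median level of 6.76 CPM; for each list, the 2 smallest p-values; and the 5 patterns most like the lower region. Other regions were named after their values were seen. Some items that the rule named are not reported here. At the 20 kb limit, the last region inside, near Srebf2 at 19.1 kb, had 74.5 CPM in OPA1KO libraries and 80.8 CPM in WT libraries, and the first outside, near Abca1 at 20.6 kb, had 2.54 CPM in OPA1KO libraries and 2.88 CPM in WT libraries.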

Additional observations from a re-analysis of the deposited data

Results flagged for a closer look

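In 3 of 52 sets of 4 libraries, 1 library stood far from the other 3 by Dixon's test, and chance alone gives about 1 in 20 such sets. At the Gramd1c start region the lowest WT library, replicate 2, had 10.1 CPM, while the other 3 WT libraries were close together. At the Nr1h3 start region the highest OPA1KO library, replicate 2, had 12.1 CPM. In the summed level of Gramd1b the highest OPA1KO library, replicate 1, had 216.1 CPM.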

How the results depend on the processing

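The lower Gramd1b region kept its direction in all alternatives, but whether it was called depended on the setting. With total counts (log2 fold change -0.79, adjusted p 0.057) and limma-voom (adjusted p 0.147), 0 member regions were called lower, and it was called with DESeq2 (adjusted p 0.00477). Over the whole table DESeq2 called 10 regions higher and 28 lower, and limma-voom called 2 lower. With the replicate block, 0 member regions were called lower (adjusted p 0.242 for the Gramd1b region), and the whole table had 1 higher and 0 lower; the numbers share no source in the labels. Leaving out 1 library at a time gave 0 to 1 member regions called lower, 1 to 14 higher and 0 to 54 lower over the whole table, a log2 fold change of -0.89 to -0.69 for the Gramd1b region and a rank of 1 to 3 among the 22. The near-zero change of the Srebf1 start region 60210279 ranged from -0.05 to 0.06, turning below 0 without OPA1KO replicate 3 (-0.02), OPA1KO replicate 4 (-0.02), WT replicate 2 (-0.05) or WT replicate 4 (-0.02). That of the Srebf2 start region 82146777 ranged from 0.00 to 0.19, at 0.00 without WT replicate 3. The summed log2 ratio of the other Gramd1b regions was -0.09 to 0.01. With 1 library left out, the summed log2 ratio crossed 0 at Abcg1 (-0.02 to 0.09) and Srebf2 (-0.02 to 0.11), as did the list medians of LXR genes (-0.07 to 0.05) and of esterification (-0.05 to 0.01) and sterol transport genes (-0.05 to 0.01), and the neutrophil (-0.18 to 0.11), B cell (-0.12 to 0.09), cDC1 (-0.01 to 0.05) and plasmacytoid (-0.06 to 0.04) medians. Sums of CPM have no value under DESeq2, voom or the block. The Abca1 sum without the Nipsnap3b region, and the sums and list medians under these settings, were added after seeing the data. The causes were not tested. Counts of 4 to 26 at the weakest regions limit what can be read from them.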
